A study of Mus musculus with 18 samples.

Results

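Pou5f1 (also called Oct4), Sox2, Nanog, Sall4, Utf1, Lin28a and Lin28b, 7 regulators of the pluripotent state, were followed by symbol through an RNA-seq time course of differentiating mouse embryonic stem cells (mESCs). All 7 were found among the 20703 genes of the expression table, each as a single row, so all had passed the authors' filter on low counts. The cells were E14 mESCs, a line from the mouse blastocyst, and the groups were WT cells and 2 clonal Nsd1-KO lines, KO-1 and KO-2. Each KO line is 1 single-cell clone with a homozygous deletion of exon 5 of Nsd1, the gene of an H3K36 methyltransferase, made by CRISPR-Cas9 in cells that already carried a Flag tag and a neomycin resistance cassette at Nsd1. At day 0 the cells were grown with leukemia inhibitory factor (LIF) on mouse embryonic fibroblast (MEF) feeders, and at day 2 and day 4 LIF and feeders had been withdrawn to let the cells differentiate as a monolayer. There were 2 libraries of poly(A) RNA, labelled as biological replicates, per line and day, which gives 2 WT and 4 KO libraries a day and 18 in all. Each library held between 9309874 and 23921193 counts on genes, and both WT libraries of day 2 were the shallowest. The study's methods name fragments as the unit counted. Most low counts are even numbers, however, so both reads of a fragment may have been counted, and the depth in fragments may be lower than these totals. In bulk RNA, fewer cells that express a gene and less RNA per cell cannot be told apart.

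The labels were checked on Nsd1 and on markers of embryonic stem cells. The normalized count of Nsd1 was 3374 and 3660 in the WT libraries of day 0, against 837 and 711 in KO-1 and 689 and 635 in KO-2. It stayed below the WT libraries in every KO library of day 2 (854 to 1024, against 2773 and 3344) and of day 4 (575 to 1103, against 2425 and 2111). Zfp42 and Esrrb, genes of undifferentiated mESCs, had normalized counts of 8633 or more in all 6 libraries of day 0.

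Pou5f1 and Sox2 are transcription factors that bind DNA together, next to each other, and with the homeodomain protein Nanog they switch on each other's genes and many others of the pluripotent state. Sall4 is a zinc finger protein that supports Pou5f1 expression and recruits the NuRD corepressor, and Utf1 is a chromatin-bound protein whose gene is a textbook target of Pou5f1 and Sox2. Lin28a and Lin28b are RNA-binding proteins that block the maturation of the let-7 microRNAs, which are known for promoting differentiation. Naive mESCs lose Nanog early on leaving pluripotency, while Pou5f1 is retained for longer and Sox2 depends on the lineage taken, being kept in neural cells and lost in the primitive streak.

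Values are given as normalized counts, which were recovered from the deposited log2-scale values and are corrected for sequencing depth but not for gene length. A gene was called a differentially expressed gene (DEG) where limma, fitted to the deposited values of all genes and all 18 libraries, gave an adjusted p under 0.01 together with a log2 fold change beyond 0.58 in either direction. The log2 fold changes are differences of the deposited values, in which low counts are compressed, so that they understate the change of a low gene. The median gene had a mean deposited value of 9.08, and the lowest value was 8.359. A low gene therefore passes the fold threshold less readily. The shares of all genes printed beside counts of DEGs include such genes and were not matched for level. They may thus understate the share among genes as high as the regulators. For KO from day 2 to day 4, 1.49% of all genes were called, against 10.3% by limma-voom on the recovered counts. Standard errors (SE) come from the same limma fit, and standard deviations (SD) are over the 2 WT or the 4 KO libraries of a day. The 4 KO libraries, 2 from each of 2 clones, were fitted as 1 group. Their SD therefore includes the difference between the clones. The p-values of KO against WT do not cover variation among further lines.

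Without Nsd1 the 7 regulators did not move as a block. At day 0, 0 of the 7 were DEGs between KO and WT, where 2.61% of all genes were. At day 2, 3 of the 7 were, with Sox2 and Nanog higher and Pou5f1 lower in the KO cells, against 6.38% of all genes. At day 4, Sox2, Nanog, Utf1 and Lin28a were higher, so 4 of the 7 were DEGs, against 7.58% of all genes. Sall4 and Lin28b were DEGs between KO and WT at none of the 3 days. With the threshold on p alone, at an adjusted p under 0.05, the members past it were 2, 5 and 5 of 7, beside 29.7%, 46% and 37.2% of all genes at day 0, 2 and 4. Pou5f1 and Sox2 made up the 2 of day 0, on opposite sides of WT. Utf1 and Lin28a were among the 5 of day 2, with adjusted p = 0.0493 and 0.0479 (limma). A replicate block in the fit took these to 0.0587 and 0.0568, and limma-voom to 0.0617 and 0.0529, so neither stayed under 0.05. The median log2 fold change of the 7 was -0.11, -0.06 and 0.66 at the 3 days, and that of all genes was -0.003, -0.016 and 0.0. The p-values measure the spread between these libraries, and WT had 2 of them a day.

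**Figure D1:**
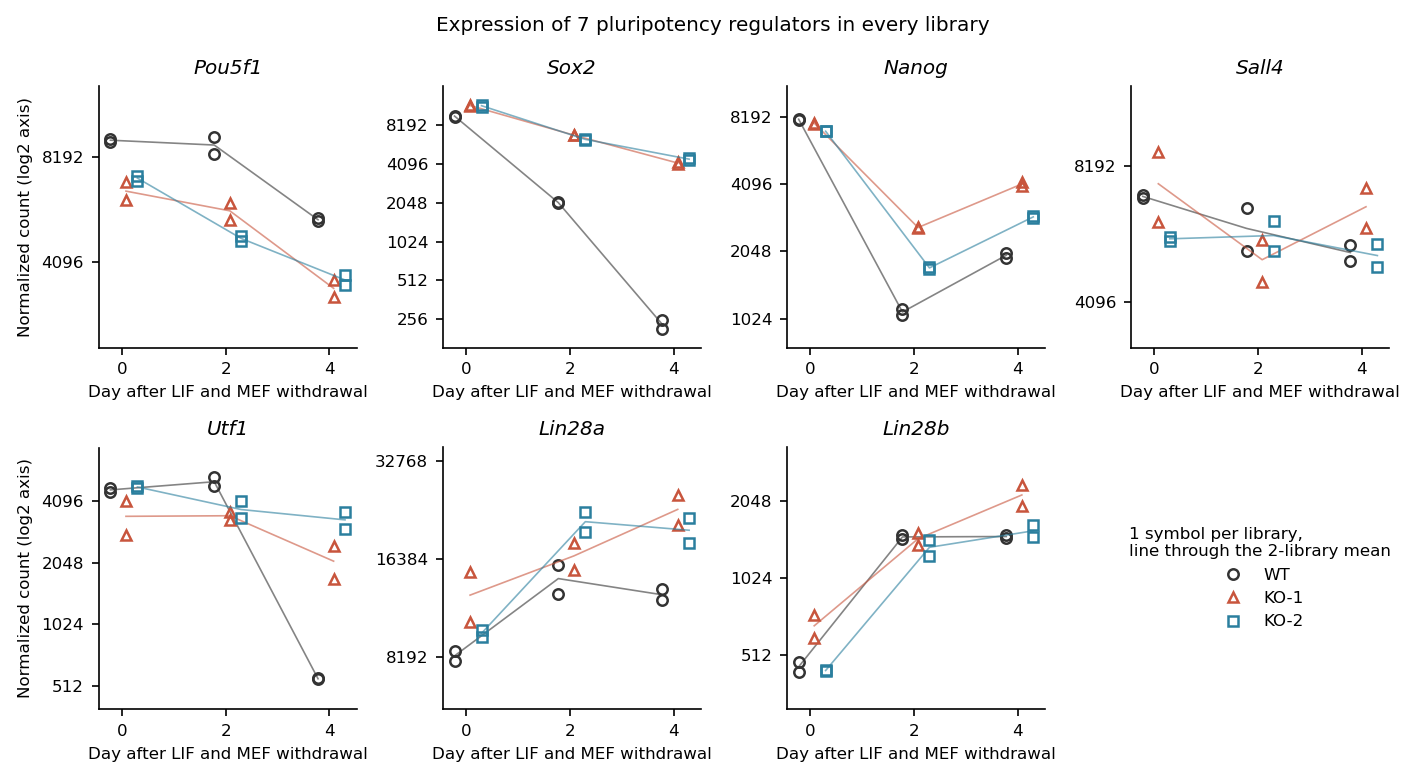
Normalized counts of the 7 genes (vertical axes, log2 scale, a separate range for each gene) by day after LIF and MEF withdrawal, with 1 symbol per library and lines through the mean of the 2 libraries of each line. Sox2 of WT falls to 217 and 253 at day 4 while the KO libraries stay at 4083 to 4546, and Pou5f1 of the KO libraries lies below WT at each day.

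Pou5f1, on chromosome 17, was lower in KO cells than in WT cells at each day. At day 0 its normalized count was 9073 and 9276 in WT, 6157 and 6938 in KO-1, and 7016 and 7260 in KO-2. Day 2 gave 9384 and 8388 in WT, 6072 and 5422 in KO-1, and 4861 and 4710 in KO-2. By day 4 it was 5468 and 5366 in WT, 3252 and 3627 in KO-1, and 3755 and 3515 in KO-2. No KO library reached the lower of the WT libraries of its day. Its log2 fold changes were -0.394 (SE 0.085, adjusted p = 0.00132, limma) at day 0, which missed the fold threshold, -0.695 (SE 0.085, adjusted p = 1.31e-06) at day 2, where Pou5f1 was a DEG, and -0.540 (SE 0.085, adjusted p = 2.68e-05) at day 4, again short of the fold threshold. limma-voom on the recovered counts gave -0.611 at day 4, past the threshold. The KO to WT ratio of mean normalized counts was 0.746, 0.593 and 0.653. KO-1 alone gave -0.578 at day 2, just under the threshold, and KO-2 alone -0.812. Neither test of a change in the KO effect against day 0 passed, with adjusted p = 0.081 for day 2 and 0.422 for day 4 (limma). An exon of Pou5f1 overlaps the antisense gene Gm19553, and the library kit named in the labels marks no strand, so reads of the pair cannot be told apart.

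In WT cells, Pou5f1 held its level until day 2 and then fell. The means of the 3 days were 9175 ± 144, 8886 ± 705 and 5417 ± 72 (SD, n = 2), with log2 fold changes of -0.045 (adjusted p = 0.754, limma) for the first interval and -0.652 (SE 0.098, adjusted p = 1.68e-05) for the second. Without WT day 2 replicate 1 the second was -0.58 and just missed the fold threshold, and a fit to the WT libraries of those days alone gave adjusted p = 0.0104. KO means were 6843 ± 477, 5266 ± 618 and 3537 ± 214 (SD, n = 4). The corresponding KO changes, -0.346 and -0.498, had adjusted p = 0.000494 and 1.58e-05 (limma) and missed the fold threshold. From day 0 to day 4 the mean dropped to 0.59 of its start in WT and to 0.517 in KO.

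Sox2, on chromosome 3, showed the widest gap of the 7 at day 2 and day 4. Its normalized count at day 0 was 9653 and 9487 in WT, 11614 and 11475 in KO-1, and 11674 and 11344 in KO-2. At day 2 the WT libraries had 2032 and 2063, KO-1 6799 and 6817, and KO-2 6294 and 6339. At day 4 WT had 253 and 217, KO-1 4083 and 4208, and KO-2 4546 and 4337. Every KO library was above both WT libraries at each day, and the lines of KO-1 and KO-2 ran together. In limma, KO exceeded WT by 0.253 (SE 0.058, adjusted p = 0.00242) on the log2 scale at day 0, under the fold threshold, 1.434 (SE 0.058, adjusted p = 2.67e-13) at day 2 and 2.721 (SE 0.058, adjusted p = 1.45e-18) at day 4. On the scale of the counts, the KO to WT ratio was 1.2, 3.2 and 18.3, and limma-voom gave a log2 fold change of 4.212 at day 4. Sox2 lies within an intron of the long noncoding RNA gene Sox2ot, which had normalized counts of 16.4 or less in every library.

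With time Sox2 fell in both genotypes, and less in KO. WT means fell from 9570 ± 118 over 2048 ± 22.1 to 235 ± 25 (SD, n = 2), a drop of 40.7-fold. KO means went from 11527 ± 148 over 6562 ± 284 to 4293 ± 198 (SD, n = 4), 2.68-fold in all. In WT both intervals passed, with log2 fold changes of -1.939 (SE 0.068, adjusted p = 1.79e-14) and -1.835 (SE 0.068, adjusted p = 1.24e-14, limma). In KO the first did, at -0.758 (SE 0.048, adjusted p = 1.11e-10), and the second, at -0.548 (adjusted p = 3.48e-08), fell short of the fold threshold. The KO effect grew against that of day 0 by 1.181 at day 2 (SE 0.083, adjusted p = 1.09e-08) and by 2.468 at day 4 (SE 0.083, adjusted p = 7.07e-15, limma), where 3.19% and 6.93% of all genes passed such a test.

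Nanog, on chromosome 6, was higher in KO cells at day 2 and day 4, and the difference at day 0 did not pass. At day 0 the normalized count was 8008 and 7928 in WT, 7617 and 7692 in KO-1, and 7037 and 7049 in KO-2. Day 2 values were 1067 and 1130 in WT, 2604 and 2632 in KO-1, and 1745 and 1712 in KO-2. Those of day 4 were 1914 and 2024 in WT, 4002 and 4187 in KO-1, and 2957 and 2884 in KO-2. The KO libraries were thus all below WT at day 0 and all above it afterwards. KO differed from WT by -0.109 (SE 0.134, adjusted p = 0.596, limma) on the log2 scale at day 0, and the log2 fold change was 0.703 (SE 0.134, adjusted p = 0.00023) at day 2 and 0.665 (SE 0.134, adjusted p = 0.000427) at day 4, with KO to WT ratios of 0.922, 1.98 and 1.78. The clones differed in the size of this effect. KO-1 alone gave 0.939 and 0.872 at day 2 and 4, and KO-2 alone 0.468 and 0.457, with adjusted p = 2.67e-07 and 3.31e-07 (limma) but under the fold threshold. Fits to the libraries of 1 day only raised the adjusted p to 0.0152 and 0.0165, and leaving out WT day 4 replicate 1 raised that of day 4 to 0.0128.

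Nanog was also the one gene of the 7 that fell and then rose again in WT. It fell 7.25-fold from day 0 to day 2, from 7968 ± 56 to 1099 ± 44.1 (SD, n = 2; log2 fold change -2.348, SE 0.155, adjusted p = 2.61e-10, limma), and rose to 1969 ± 77.6 by day 4 (0.611, SE 0.155, adjusted p = 0.00314). The call of the rise was lost without either library of either day, with adjusted p up to 0.031 (WT day 4 replicate 2 left out), and after quantile normalization (0.48, adjusted p = 0.0186). KO cells fell 3.38-fold, from 7349 ± 354 to 2173 ± 514 (SD, n = 4; -1.536, SE 0.109, adjusted p = 6.82e-10), and reached 3507 ± 683 at day 4 (0.572, adjusted p = 0.000505, under the fold threshold). The change in KO effect against day 0 was 0.812 at day 2 (SE 0.189, adjusted p = 0.00408) and 0.773 at day 4 (SE 0.189, adjusted p = 0.00395, limma). With the replicate number as a block within each day the adjusted p was 0.0113 and 0.0109. Leaving out any single WT library of the days compared took the adjusted p above 0.01, up to 0.0233 for day 2 (WT day 2 replicate 1) and 0.0273 for day 4 (WT day 4 replicate 1).

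Of the promoter windows of RefSeq on GRCm38.p6, which reach from 250 bases before to 50 bases after a transcription start, 8 belonged to 6 of the 7 genes. They were searched on both strands for 2 words of the Pou5f1 and Sox2 proteins: the octamer ATGCAAAT, which POU proteins bind, and TTGTNATGC, in which a SOX word and the first part of a POU word stand side by side. The last 4 letters of the second word are the first 4 of the octamer, so that matches may overlap. The octamer was in 0 of the 8 windows, and in 1.74% of all 32851 promoter windows. The composite was in the 2 overlapping windows of Nanog alone, and in 0.731% of all windows. The match is shown because it joins words bound by the protein classes of 2 of the 7 genes, Sox2 and Pou5f1. It lies on the strand opposite to the gene, at bases -72 to -64 from the upstream of the 2 annotated starts of Nanog and -148 to -140 from the other, and stands in capitals in this stretch of chr6:122707377-122707465 (GRCm38.p6, plus strand).
Nanog promoter: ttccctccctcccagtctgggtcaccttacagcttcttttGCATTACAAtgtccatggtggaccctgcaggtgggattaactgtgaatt
A match of letters says nothing of binding in these cells, and the absence of a match refers to these windows and letters only.

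Utf1, on chromosome 7, fell steeply in WT cells between day 2 and day 4, a fall that was not called over both KO lines together. At day 0 its normalized count was 4751 and 4558 in WT, 2786 and 4125 in KO-1, and 4771 and 4851 in KO-2, and the groups overlapped. By day 2 it was 5361 and 4846 in WT, 3647 and 3310 in KO-1, and 4087 and 3373 in KO-2, with all KO libraries below WT. At day 4 the order was turned round, with 551 and 557 in WT, 1707 and 2462 in KO-1, and 3632 and 3008 in KO-2. The log2 fold changes were -0.175 (SE 0.178, adjusted p = 0.512), -0.441 (SE 0.178, adjusted p = 0.0493) and 1.542 (SE 0.178, adjusted p = 4.89e-07, limma), of which the last passed as a DEG. The KO to WT ratio of mean counts at day 4 was 4.88. In WT the fall from day 2 to day 4 was 9.21-fold (log2 fold change -2.364, SE 0.206, adjusted p = 1e-08), and in KO the mean went from 3604 ± 353 to 2702 ± 818 (SD, n = 4; -0.381, adjusted p = 0.0654, limma). KO-1 alone passed, at -0.62 (adjusted p = 0.00118). The KO effect at day 4 differed from that at day 0 by 1.717 (SE 0.252, adjusted p = 2.3e-05).

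Sall4, on chromosome 2, passed in none of the comparisons between genotypes, days or clones. Its normalized count was 6970 and 7058 in WT at day 0, 8796 and 6166 in KO-1, and 5707 and 5593 in KO-2. At day 2 WT had 5301 and 6615, KO-1 4543 and 5615, and KO-2 5302 and 6190. At day 4 they were 5486 and 5049 in WT, 7322 and 5984 in KO-1, and 4883 and 5493 in KO-2. The genotypes overlapped at all 3 days. Its log2 fold changes between KO and WT were -0.109, -0.125 and 0.139 (adjusted p = 0.639, 0.525 and 0.517, limma), with 95% confidence intervals from -0.419 to 0.201, -0.435 to 0.185 and -0.171 to 0.45. No interval of time passed in either genotype. Sall4 shares exonic bases with Gm14261 on the other strand.

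Lin28a, on chromosome 4, rose after LIF withdrawal in both genotypes and was higher in KO cells at day 4. At day 0 its normalized count was 7933 and 8572 in WT, 14908 and 10450 in KO-1, and 9423 and 9939 in KO-2. By day 2 it was 12806 and 15698 in WT, 15106 and 18353 in KO-1, and 19797 and 22817 in KO-2. At day 4 it reached 13194 and 12231 in WT, 25708 and 20776 in KO-1, and 18309 and 21805 in KO-2. KO libraries were all above WT at day 0 and day 4 and overlapped with WT at day 2. The log2 fold changes between KO and WT were 0.390 (SE 0.158, adjusted p = 0.0693), 0.393 (SE 0.158, adjusted p = 0.0479) and 0.730 (SE 0.158, adjusted p = 0.000836, limma), the last a DEG with a KO to WT ratio of 1.7. After quantile normalization the gene passed at day 2 as well, at 0.59 (adjusted p = 0.00381). Without WT day 4 replicate 2 the call of day 4 was lost, at 0.678 and adjusted p = 0.023. The change of the KO effect from day 0 to day 4 was 0.340 (adjusted p = 0.299) and did not pass. From day 0 to day 2 the gene rose by 0.738 in WT (SE 0.182, adjusted p = 0.00283) and by 0.741 in KO (SE 0.129, adjusted p = 0.000113, limma). The WT call was lost without WT day 0 replicate 1 or 2 or WT day 2 replicate 2, with adjusted p up to 0.0478, and in a fit to the WT libraries of those days alone (adjusted p = 0.0212), and KO-1 alone gave 0.4 (adjusted p = 0.0303). Reads of Lin28a and of Gm13061 on the other strand cannot be told apart where their exons overlap.

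Lin28b, on chromosome 10, is the paralog of Lin28a and was the lowest of the 7 at day 0. Its normalized count was then 438 and 479 in WT, 736 and 593 in KO-1, and 445 and 442 in KO-2. Day 2 had 1460 and 1509 in WT, 1379 and 1542 in KO-1, and 1253 and 1450 in KO-2. Day 4 had 1504 and 1476 in WT, 2381 and 1959 in KO-1, and 1484 and 1654 in KO-2. The groups overlapped at each day, and the largest gap, 0.230 at day 4, had adjusted p = 0.129 (limma). With time it rose 3.24-fold in WT (log2 fold change 1.052, SE 0.133, adjusted p = 2.33e-06) and 2.54-fold in KO (0.860, SE 0.094, adjusted p = 3.49e-07) from day 0 to day 2. From day 2 to day 4 the change was 0.004 (adjusted p = 1) in WT and 0.294 (adjusted p = 0.0264, limma) in KO.

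**Figure D2:**
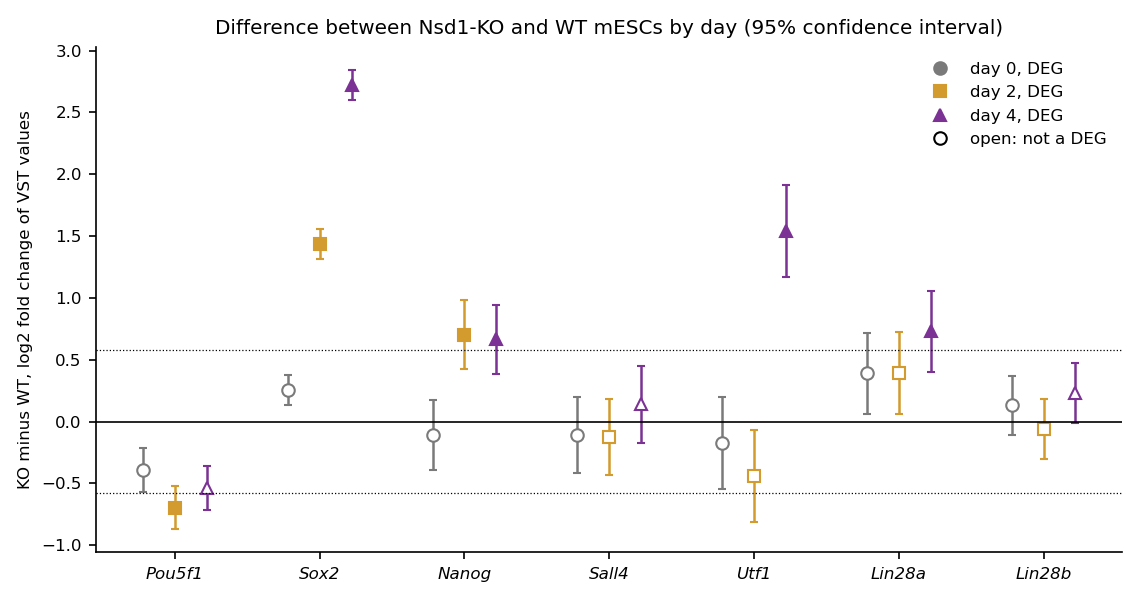
Log2 fold change between KO and WT (vertical axis, difference of the deposited log2-scale values) of the 7 genes at day 0, 2 and 4, with 95% confidence intervals of the limma fit. Filled symbols are DEGs, dotted lines stand at 0.58 and -0.58, and the points of Sox2 climb from 0.253 to 2.721 while those of Pou5f1 stay between -0.394 and -0.695.

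Across all features, libraries of KO and WT that do not overlap were frequent, so that non-overlap alone says little. At day 0, 4 of the 7 genes had it, against 47.4% of all genes. The counts were 4 of 7 at day 2, against 57.5%, and 5 of 7 at day 4, against 49.8%.

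Time changes within a genotype were counted the same way. From day 0 to day 2, 4 of the 7 changed in WT, with Sox2 and Nanog falling and Lin28a and Lin28b rising, against 6.68% of all genes. The same 4 passed in KO in the same directions, against 3.2% of all genes. From day 2 to day 4, 4 of the 7 changed in WT (Pou5f1, Sox2 and Utf1 fell, Nanog rose), against 8.76% of all genes, and 0 of the 7 in KO, against 1.49%. At an adjusted p under 0.05 without a threshold on the fold, that last count was 4, against 23.7% of all genes, and limma-voom called 2 by the usual thresholds, Sox2 and Nanog, against 10.3%.

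The opposite movements within the group were measured as ratios of the normalized counts of 2 genes within a library, which no scaling of libraries can alter. Sox2 over Pou5f1 was 1.06 and 1.02 in the WT libraries of day 0, 0.217 and 0.246 at day 2, and 0.0462 and 0.0405 at day 4. The KO libraries ranged from 1.56 to 1.89 on day 0, from 1.12 to 1.35 on day 2 and from 1.16 to 1.26 on day 4. In normalized counts, Pou5f1 therefore exceeded Sox2 in every WT library of day 2 and 4, and in none of the 12 KO libraries. The difference of the log2-scale values between KO and WT was 0.65, 2.13 and 3.26 at the 3 days. Nanog over Pou5f1 was 0.883 and 0.855 in WT at day 0, 0.114 and 0.135 at day 2, and 0.35 and 0.377 at day 4. KO-1 had 1.24 and 1.11, 0.429 and 0.485, and 1.23 and 1.15, and KO-2 had 1.0 and 0.971, 0.359 and 0.364, and 0.787 and 0.82. The KO libraries were above WT at each day, by 0.29, 1.4 and 1.21 on the log2 scale.

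Sox2 over Nanog was 1.21 and 1.2 in WT at day 0, 1.9 and 1.83 at day 2, and 0.132 and 0.107 at day 4, when KO-1 had 1.02 and 1.0 and KO-2 1.54 and 1.5. The gap between KO and WT was 0.36, 0.73 and 2.06 on the log2 scale. For Utf1 over Sall4 the genotypes overlapped at day 0 and day 2, and at day 4 the ratio was 0.101 and 0.11 in WT and 0.233 to 0.744 in KO. Lin28b over Lin28a was 0.0552 and 0.0559 in WT at day 0 and 0.114 and 0.121 at day 4, and 0.0759 to 0.0943 in KO at day 4. At day 0 the KO libraries ranged from 0.0445 to 0.0568 and overlapped with WT, although the differences of the log2-scale values did not. The 5 pairs were chosen with the movements of their genes known, and the gaps are given as a description. An exact permutation test, two-sided, of 4 against 2 libraries cannot give less than p = 0.0667, so none of the 15 combinations of a pair and a day could pass 0.05.

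**Figure D3:**
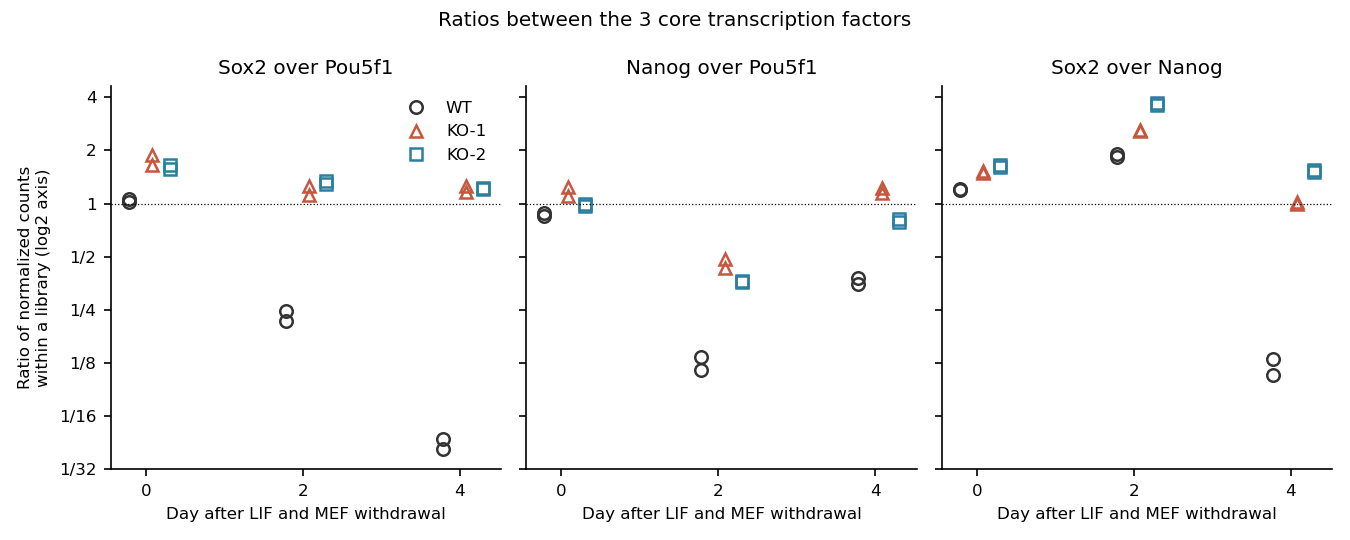
Ratios of normalized counts within a library (vertical axis, log2 scale) for Sox2 over Pou5f1, Nanog over Pou5f1 and Sox2 over Nanog by day, with 1 symbol per library and a dotted line at a ratio of 1. Sox2 over Pou5f1 goes from about 1 to 0.0405 and 0.0462 in WT and stays at 1.12 or more in the KO libraries.

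Levels of different genes were compared per kilobase (kb) of exons, with exon lengths from GENCODE M21. In WT at day 0 the order was Sox2 (4652 ± 57.3 normalized counts per kb, SD, n = 2), Pou5f1 (4081 ± 64.1), Utf1 (3793 ± 111), Nanog (3554 ± 25), Lin28a (2065 ± 113), Sall4 (1267 ± 11.2) and Lin28b (50.6 ± 3.22). Each gene was above the next in both libraries. Sox2 also led in KO at day 0 (5604 ± 71.7, SD, n = 4), and there Utf1, Nanog, Pou5f1 and Lin28a, between 3369 and 2798, could not be ordered beyond their spread. At day 4, WT was led by Lin28a (3181 ± 170) and Pou5f1 (2410 ± 32), and Sox2 was last (114 ± 12.2), below Lin28b (164 ± 2.2) in both libraries. In KO at day 4, Lin28a (5418 ± 770) was above Utf1 (2202 ± 666) and Sox2 (2087 ± 96.2), which overlapped, and Pou5f1 (1573 ± 95.1) and Nanog (1564 ± 305) also overlapped. Sall4 (1069 ± 187) came next, overlapping with Nanog, and Lin28b (206 ± 43.4) was last. At day 2 the leading places were held by Utf1 (4159 ± 297), Pou5f1 (3953 ± 313) and Lin28a (3567 ± 512) in WT and by Lin28a (4759 ± 802) in KO, where Sox2 (3190 ± 138) and Utf1 (2937 ± 288) followed and overlapped.

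**Figure D4:**
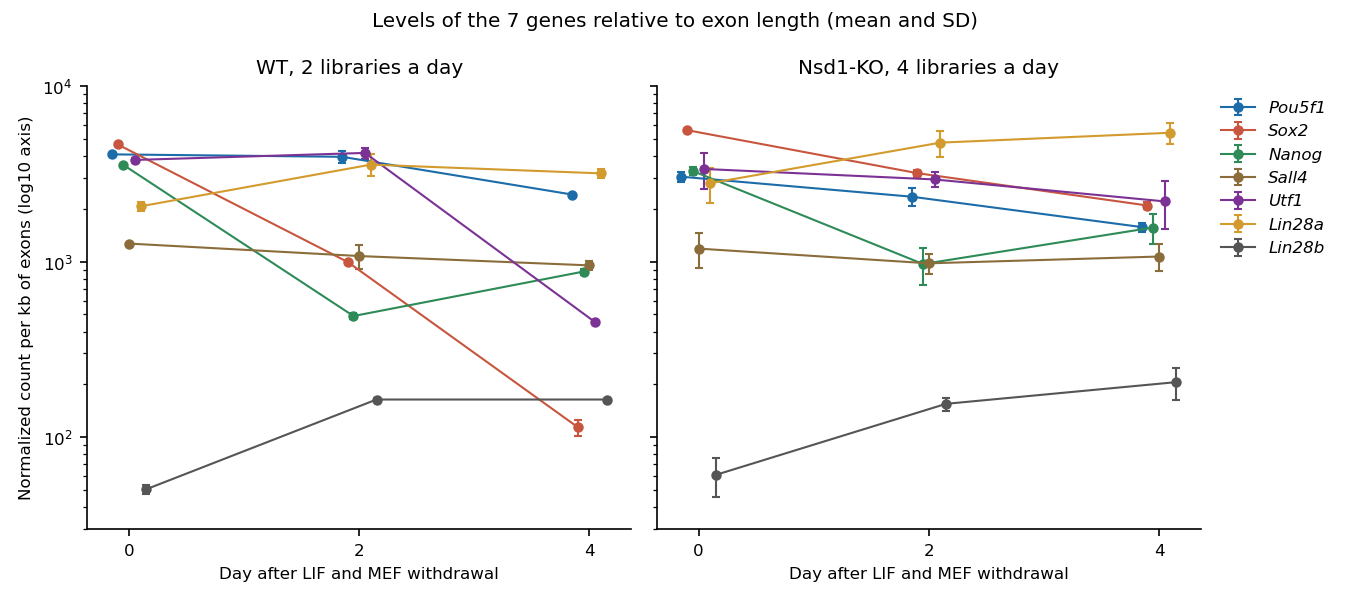
Mean and SD of the normalized count per kb of exons (vertical axis, log10 scale) of the 7 genes by day, for 2 WT libraries and 4 KO libraries a day. Sox2 goes from first to last place in WT, from 4652 to 114, and is at 2087 in KO at day 4.

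Both clones were compared gene by gene, since each is a single clone and what differs between them need not follow from Nsd1. Of the 7 genes, 0 were DEGs in the comparison of the clones on any of the 3 days, against 0.029%, 0.0435% and 0.251% of all genes. At an adjusted p under 0.05 alone, 0, 1 and 3 of the 7 differed at day 0, 2 and 4, beside 0.551%, 0.966% and 12.8% of all genes. Nanog was higher in KO-1 at day 2 by 0.471 (SE 0.051, adjusted p = 3.86e-05) and at day 4 by 0.415 (SE 0.051, adjusted p = 7.63e-05, limma). Utf1 at day 4 was lower in KO-1 by 0.558 (SE 0.128, adjusted p = 0.00727, log2 scale), and Lin28b at day 4 was higher in KO-1 by 0.354 (SE 0.075, adjusted p = 0.00465, limma). Sox2 differed between the clones by 0.004, 0.099 and -0.087, with adjusted p of 0.334 or more.

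Some of the spread came from libraries rather than clones. KO-1 day 0 replicate 1 had the highest Lin28a (14908), Sall4 (8796) and Lin28b (736) and the lowest Utf1 (2786) and Pou5f1 (6157) of the 4 KO libraries of that day. It was also the shallowest of them, with 9644240 counts, and the cause of its distance was not tested. With KO-1 represented by that library alone at day 0, the log2 fold change between the clones was 0.59 for Sall4, -0.68 for Utf1 and 0.59 for Lin28a. With both libraries of KO-1 the values were 0.35, -0.435 and 0.348. Without it, the count of DEGs between KO and WT at day 0 was 0, as with it.

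For each gene, the genes with the closest course over the 18 libraries were picked from 5208 candidates of at least median level that varied between groups. The coefficients are Pearson's r of the deposited values, the libraries share their groups and depth, and r describes the likeness only. Pou5f1 was closest to Pgk1 (r = 0.983), Pmpcb (0.974) and Pgam1 (0.969). Pgk1 and Pgam1 encode enzymes of glycolysis and Pmpcb a subunit of the mitochondrial processing peptidase. Sox2 was closest to Alpl (0.989), the alkaline phosphatase long used to stain mESCs, Tdh (0.979), the threonine dehydrogenase, and Adam23 (0.978). Nanog had Egr1 (0.966), an immediate early transcription factor, Phaf1 (0.955) and Hmces (0.948). Utf1 had Syce2 (0.947), a protein of the synaptonemal complex, and Mkrn1 (0.941). Lin28a had Xpo5 (0.982), the export receptor of microRNA precursors, Fasn (0.973), the fatty acid synthase, and Spast (0.972). Lin28b had Plxnb1 (0.966), Zfp866 (0.965) and the splicing factor gene Srsf1 (0.962). For Sall4 the closest were Sbno1 (0.876), Igsf9b (0.856) and Cnot1 (0.852). Among the 7 themselves, Lin28a and Lin28b (0.856) and Sox2 and Utf1 (0.76) ran most alike. Pou5f1 and Lin28a (-0.827) ran most against each other, and Pou5f1 and Sox2 had 0.174.

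Of 10 genes that Pou5f1 and Sox2 are known to activate, 2, 6 and 7 were higher in KO at day 0, 2 and 4, and 0, 0 and 1 lower, beside 1.73%, 4.01% and 3.67% of all genes called higher and 0.879%, 2.37% and 3.91% called lower. The list's median log2 fold change was 0.27, 0.7 and 1.1. Lefty1, an inhibitor of Nodal signalling, was higher by 1.55 (SE 0.16), 2.37 (SE 0.16) and 2.61 (SE 0.16) at the 3 days. Fbxo15 was higher by 0.65 (SE 0.08) at day 0, and Zfp42 (Rex1) by 1.75 (SE 0.05) at day 2 and 1.62 (SE 0.05) at day 4. Tdgf1, the Nodal coreceptor, was lower at day 4 by 1.07 (SE 0.07, log2 scale), where WT had a normalized count of 8323 ± 329 (SD, n = 2) and KO one of 3642 ± 116 (SD, n = 4).

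Factors of the naive state share many bound sites with Pou5f1, Sox2 and Nanog but are a separate set of 10 genes. They were higher in 2, 7 and 6 cases and lower in 0, 0 and 1 at the 3 days. The shares of all genes were again 1.73%, 4.01% and 3.67% higher and 0.879%, 2.37% and 3.91% lower. These shares apply to the counts of every list that follows. Dppa3 (1.28, SE 0.11) and Nr0b1 (0.68, SE 0.07) were the 2 at day 0. Klf2 was higher by 2.07 (SE 0.07) at day 2 and 1.94 (SE 0.07) at day 4, and Esrrb by 1.78 (SE 0.08) and 2.15 (SE 0.08). Klf5 was lower by 1.25 (SE 0.1) at day 4. At day 2, Sox2 and Nanog were on the same side of WT as the 7 naive genes called, and Pou5f1 on the other.

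Of 11 relatives of the 7 within the POU, SOX and SALL families, 0, 3 and 3 were higher and 1, 4 and 1 lower at the 3 days, beside 1.73%, 4.01% and 3.67% of all genes higher and 0.879%, 2.37% and 3.91% lower. Pou3f1 (Oct6), a POU factor that rises as naive cells leave pluripotency, was lower at day 2, at a normalized count of 1428 ± 114 in KO (SD, n = 4) beside 5679 ± 48.6 in WT (SD, n = 2; log2 fold change -1.64, SE 0.06, adjusted p = 8.77e-14, limma). Sox11 was lower at all 3 days, by 0.72 (SE 0.11), 1.09 (SE 0.11) and 0.73 (SE 0.11). Sall2 was lower at day 2 by 0.91 (SE 0.08) and higher at day 4 by 1.59 (SE 0.08). Sall1 (1.07, SE 0.07) and Sall3 (1.02, SE 0.18) were higher at day 2, and Sox1 (1.72, SE 0.07) at day 4. Sall4 itself did not pass at these days.

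Partners of Sall4 and Lin28a were counted against the same shares of all genes (1.73%, 4.01% and 3.67% higher, 0.879%, 2.37% and 3.91% lower). Of 11 subunits of NuRD, 0, 0 and 2 were higher and 0 lower at the 3 days, with Mta3 (0.7, SE 0.08) and Rbbp7 (0.61, SE 0.07) the 2 at day 4. Of 8 genes that process let-7 precursors or act with Lin28a on them, 0 passed at any of the 3 days. Known targets of let-7 went both ways, with 2, 1 and 2 of 10 higher and 1, 3 and 3 lower. Igf2bp2 was higher by 0.93 (SE 0.06), 1.57 (SE 0.06) and 1.26 (SE 0.06), Mycn by 0.85 (SE 0.11) at day 0 and Trim71 by 0.66 (SE 0.18) at day 4. Igf2bp3 was lower by 1.09 (SE 0.18), 1.15 (SE 0.18) and 1.29 (SE 0.18), Prtg by 0.93 (SE 0.18) at day 2, and Hmga2 by 2.65 (SE 0.08) at day 4. Of 8 repressors of Pou5f1 or Nanog, 0, 0 and 1 were higher and 0, 0 and 2 lower. Tcf7l1 was higher (0.76, SE 0.07), and Gata6 (-1.48, SE 0.06) and Cdx2 (-1.27, SE 0.08) were lower at day 4. MicroRNAs themselves are not read by poly(A) RNA-seq.

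**Figure D5:**
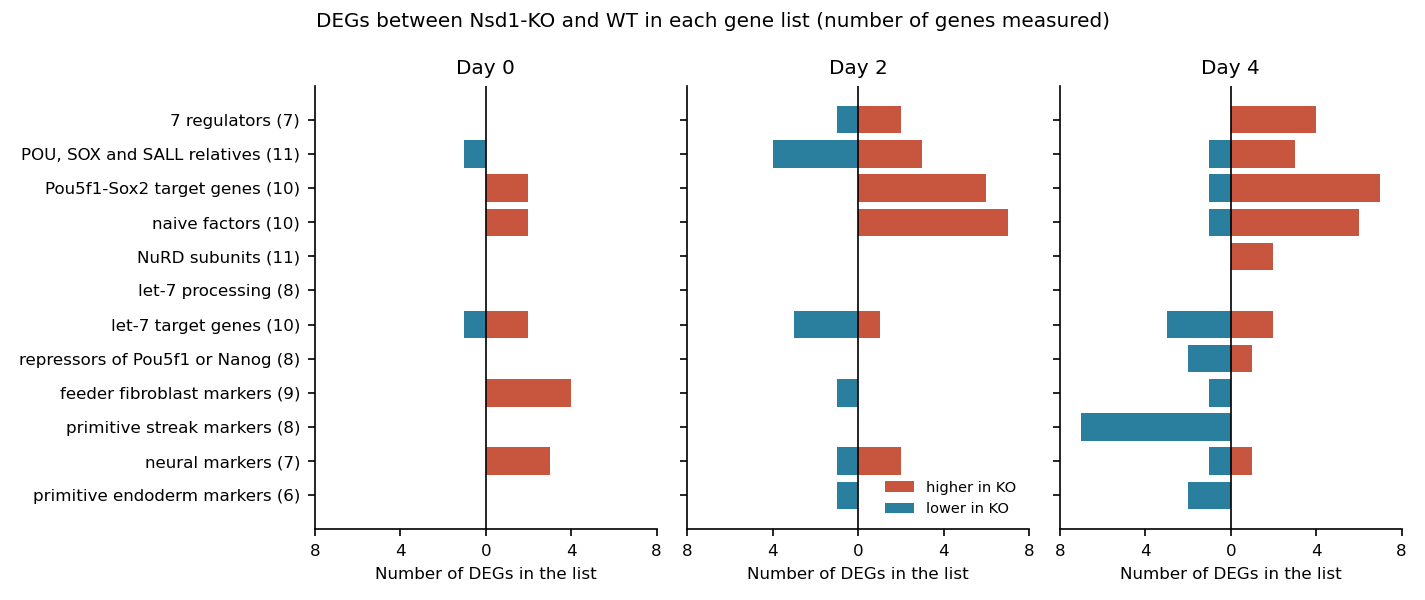
Number of DEGs between KO and WT (horizontal axis, higher in KO to the right and lower to the left) in the 7 regulators and in 11 lists of related or marker genes at day 0, 2 and 4, with the number of genes measured beside each name. Bars of the target and naive lists point to the right at day 2 (6 and 7 genes), and the bar of primitive streak markers points to the left at day 4 (7 genes).

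Markers of other cell types moved with the genotype as well, and their part in the values of the 7 genes was not tested. Primitive streak markers were DEGs in 0 of 8 cases at day 0 and day 2 and lower in 7 of 8 at day 4. Their summed normalized count at day 4 was 34380 and 33504 in WT and 455 to 926 in KO. T (Brachyury), the most abundant of them in WT at day 4, had 16248 ± 272 in WT (SD, n = 2) and 140 ± 90.4 in KO (SD, n = 4; log2 fold change -4.8, SE 0.12), and Mixl1 was lower by 4.02 (SE 0.06). Eomes had 5637 ± 221 in WT and 415 ± 185 in KO at day 4 (-2.74, SE 0.12). Day 4 is also the day at which Sox2 was lowest and Nanog above its day 2 level in WT. At day 2, when Sox2, Nanog and Pou5f1 already differed, these markers summed to 306 and 319 in WT and 114 to 152 in KO.

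Of 7 neural markers in the table, 3, 2 and 1 were higher and 0, 1 and 1 lower. Tubb3 was higher by 1.08 (SE 0.08), 0.94 (SE 0.08) and 1.14 (SE 0.08), Ncam1 by 1.0 (SE 0.11) at day 0 and 1.0 (SE 0.11) at day 2, and Nes was higher by 0.68 (SE 0.14) at day 0 and lower by 1.09 (SE 0.14) at day 2 and 1.39 (SE 0.14) at day 4. The 7 summed to 1853 and 1795 in WT and 4574 to 5663 in KO at day 0. At day 2 they summed to 3192 and 3182 in WT and 3267 to 3345 in KO. At day 4 the sums were 6436 and 6083 in WT and 3723 to 4449 in KO. Nes made up 2161 and 2337 of the WT sums and 688 to 890 of the KO sums at day 2. Its part at day 4 was 5624 and 5247 in WT and 1252 to 2309 in KO. The WT sums of day 2 and day 4 were thus mostly Nes, and Tubb3 in the same sums was higher in KO. Tubb3 had 787 ± 66.6 in WT (SD, n = 2) and 2268 ± 184 in KO (SD, n = 4) at day 0, and Nes 5436 ± 267 in WT (SD, n = 2) and 1764 ± 549 in KO (SD, n = 4) at day 4. Primitive endoderm markers were lower in 0, 1 and 2 of 6 cases, with Dab2 (-0.67, SE 0.08) at day 2 and Pdgfra (-1.51, SE 0.05) and Gata4 (-1.49, SE 0.06) at day 4. They summed to 2491 and 2495 in WT and 475 to 636 in KO at day 4.

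Feeder cells were part of the culture at day 0 and withdrawn afterwards, and several markers of fibroblasts, which other mesenchymal cells express too, were higher in the KO libraries of day 0. Of 9 markers in the table, 4 were higher at day 0, led by Fbln2 (0.78, SE 0.06) and Col1a1 (0.68, SE 0.14), and 1 was lower at day 2 (Thy1, -0.68, SE 0.06) and 1 at day 4 (Col1a1, -1.11, SE 0.14). Their sum at day 0 was 3350 and 3161 in WT, 5785 and 5818 in KO-1, and 6573 and 6708 in KO-2, of which Col1a1 made up 1471 and 1493 in WT and 2455 to 2994 in KO. Lum was at 0 in all 6 libraries of day 0 and Dcn in 1 of them. At day 2 the sum was 1206 and 1071 in WT and 759 to 905 in KO, while the log2 fold changes of Sox2, Nanog and Pou5f1 were 1.434, 0.703 and -0.695. At day 4, without feeders, the sum was 2501 and 2331 in WT and 797 to 1488 in KO, and Col1a1 had 1583 ± 86.2 in WT (SD, n = 2) and 492 ± 227 in KO (SD, n = 4).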

How the data were processed

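RNA-seq libraries of WT, KO-1 and KO-2 mESCs at day 0, 2 and 4 (18 in all) were matched to the columns of 1 expression table by the study's labels. Per the methods of the study and the labels, the authors trimmed reads (Trim Galore 0.6.7), aligned them to mm39 (STAR 2.7.11a), counted read fragments on exons from primary nonduplicated alignments (featureCounts 2.0.6), removed genes with an average count below 1, and deposited values of the variance stabilizing transformation (VST) of DESeq2 1.42.0, which are on a log2 scale. Inverting the transformation from its lowest value, 8.359, gave whole counts for 100% of values (tolerance 0.01 counts). Of these counts below 50, 70.7% to 76.1% per library were even, so both reads of a fragment may have been counted although the methods name fragments.

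limma 3.58.1 in R 4.3.3, with a trended prior, was fitted to the VST values in 6 groups of genotype and day, and in 9 groups to compare clones, with Benjamini-Hochberg adjustment over 20703 genes. limma-voom on the recovered counts was the alternative, and both were run on simulated counts as a check of the code. The simulation gave all genes the same spread and no difference between clones. It therefore does not show how often calls are wrong in these data. The 7 genes and all lists were chosen with earlier results of these data known. Genes named are the 7, Nsd1, the 3 genes most like each of the 7 (1 of them is not reported here), and in each list the 2 largest rises and falls of a day among DEGs, with the most abundant or undetected markers added after their values were seen. Exon lengths came from GENCODE M21 (GRCm38), not the build of the authors. Replicate numbers were not taken as pairs: the correlation of replicate differences between groups of 1 day ran from -0.497 to 0.476 (0.367 to 0.476 at day 2). Chi-square per degree of freedom between replicates was 2.22 (KO-2, day 0) to 12.64, which takes each count as independent. The alternatives were the libraries of a comparison alone, each clone alone, a replicate block, the same within each day (chosen after seeing the data), a filter, quantile normalization, centring, no trend, other thresholds, and each library left out. Other assays of the study were not analysed here.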

Additional observations from a re-analysis of the deposited data

Results flagged for a closer look

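The difference between KO and WT at day 2 or day 4 departed from that at day 0, by the test of that change itself (limma), for 2 of the 7 genes at day 2 and 3 at day 4, beside 3.19% and 6.93% of all genes. For Sox2 the change was 1.18 at day 2 and 2.47 at day 4 on the log2 scale, for Nanog 0.81 and 0.77, and for Utf1 1.72 at day 4. Both calls of Nanog were lost with a replicate block within each day (adjusted p = 0.0113 and 0.0109, limma) and when any single WT library of the days compared was left out (up to 0.0233 and 0.0273). The changes at day 2 and at day 4 share the libraries of day 0. The clones differed at an adjusted p under 0.01, short of the fold threshold, for Nanog at day 2 (0.47, KO-1 above KO-2) and day 4 (0.41, KO-1 above KO-2), for Utf1 at day 4 (-0.56, KO-1 below KO-2) and for Lin28b at day 4 (0.35, KO-1 above KO-2). The distance of a single library from the other 3 KO libraries of its day was examined for 21 combinations of gene and day with the 95% critical value of Dixon's test for 4 values, which chance passes in about 1 of 20, and 0 passed.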

How the results depend on the processing

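Counts of DEGs among the 7 genes stayed within 1.5 times of the reported ones in 198 of 222 recalculations under another setting or without 1 library. A threshold of adjusted p under 0.05 alone gave 2 (KO against WT, day 0), 5 (day 2), 4 (KO, day 2 to day 4), 1 (clones, day 2) and 3 (clones, day 4). For KO from day 2 to day 4, where 0 were reported, KO-1 alone gave 3 (Pou5f1, Sox2 and Utf1), KO-2 alone 1 (Nanog) and limma-voom 2. limma-voom gave 1 between the clones at day 2 (Nanog) and 1 at day 4 (Utf1), and quantile normalization gave 1 for the change in KO effect at day 2 (Nanog lost) and 1 between the clones at day 4 (Utf1). The median of all genes was -0.142 under limma-voom and -0.016 as reported for KO against WT at day 2, and -0.17 and -0.02 for WT from day 2 to day 4. Leaving out 1 library at a time gave 1 to 2 for the change in KO effect at day 2, 2 to 3 for WT from day 2 to day 4, 0 to 1 for KO from day 2 to day 4 (Nanog, without KO-1 day 2 replicate 1 or 2 or KO-2 day 4 replicate 1 or 2), 0 to 3 between the clones at day 0 (3 without KO-1 day 0 replicate 2), and 0 to 1 between them at day 4 (Utf1, without KO-1 day 4 replicate 2).

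Single-gene directions were followed for KO against WT and for the change in KO effect, and there turned in values that were not called. For KO against WT these were Sall4 at day 0 (0.066, KO-1 alone) and day 4 (-0.021, KO-2 alone), Utf1 at day 0 (0.042, KO-2 alone), Lin28b at day 0 (-0.023, KO-2 alone) and Sall4 at day 2 (-0.269 to 0.02 over left-out libraries). For the change in KO effect at day 2 they were Sall4 (0.24 with KO-2 alone, 0.019 centred on the median, -0.16 to 0.129 over left-out libraries) and Lin28a (-0.341 with KO-1 alone, -0.137 to 0.144). A replicate block in the fit gave 0, 3 and 4 DEGs for KO against WT and changed no count of DEGs. It was not used because same-numbered libraries did not deviate together on every day: at day 2 all 3 correlations were positive (0.367, 0.43 and 0.476), and at day 0 and day 4 they ran from -0.497 to 0.351. A block within each day, chosen after seeing the data, gave 1 for the change in KO effect at day 2 and 2 for that at day 4 (Nanog lost in both) and changed no other count of DEGs. The cause of the other changes was not tested. With 2 WT libraries a day, calls near a threshold, such as Nanog, rest on the spread pooled over all groups. Where leaving out 1 library left a group with 1, the spread came from the other groups alone.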
